A study of Rattus norvegicus with 48 samples.

Results

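The S100 calcium-binding proteins were followed by RNA-seq through primary cultures of rat cortex exposed to HIV-1 Tat, cocaine and 4 small molecules. The 9 genes described, of 30211 in the deposited table, are S100a4, S100a6, S100a8, S100a9, S100a10, S100a11, S100a1, S100a13 and S100b, taken by their symbols. S100a4 was chosen by its measured rise with cocaine and S100a6 by its measured fall with 4-octyl itaconate in these libraries, so these values are given as a description with no test. The other genes were taken as members of the family.

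S100 proteins are small proteins with a pair of EF-hands, loops that bind calcium, and they mostly work as dimers that change shape with calcium and then bind a target protein. In the brain S100b is best known as an astrocyte protein, S100a8 and S100a9 form calprotectin in neutrophils and activated myeloid cells, and S100a4, S100a6, S100a10 and S100a11 are widely expressed in mesenchymal and other cells, where they bind annexins, myosin or other partners. Several act outside the cell as well, through the receptor RAGE (Ager) or Toll-like receptor 4 (Tlr4).

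The cultures came from Sprague-Dawley rat fetuses of day 18 and were used after 21 days in vitro. Each of the 16 groups had 3 libraries, 48 in all. Control cultures received neither agent, Cocaine cultures had 25 µM cocaine for 24 h, Tat cultures 6 ng/mL recombinant Tat for 48 h, and Tat-Cocaine cultures both. By the paper's legends cocaine was added after the 48 h of Tat, for a further 24 h. Cultures with Tat and cocaine may thus differ from those with Tat alone in time since Tat, which cannot be told apart from cocaine. The compounds were 4OI (4-octyl itaconate, a form of itaconate that enters cells, 250 µM), Amlexanox (an inhibitor of the kinases TBK1 and IKK-epsilon, 25 µM), Tazemetostat (an inhibitor of the histone methyltransferase EZH2, 3 µM) and Senicapoc (a blocker of the potassium channel KCa3.1, 1 µM), each given for 48 h in 3 settings (no other agent, Tat, or Tat-Cocaine). No group had a compound with cocaine but without Tat. By the paper's methods 4OI was diluted from a stock in the solvent DMSO. No group is labelled as a solvent control, so effects of 4OI and of its solvent cannot be told apart. Tat was added as a protein, so no virus was present. The labels do not say whether the 3 libraries of a group came from separate animals, and the p-values measure only the spread between libraries.

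Although the labels name the cells neurons, markers of several cell types were present. The summed level of 8 astrocyte markers was 5549.5 to 12829.8 CPM (reads of a gene scaled to a common library total) per library, that of 10 neuronal markers 1154 to 5059 CPM and that of 9 microglial markers 441 to 3701 CPM. In Cocaine replicate 3 the 6 oligodendrocyte markers summed to 25395 CPM, against at most 2233 CPM in the other 47 libraries. Depth was 17.5 to 29.1 M reads on genes, with a median of 22.4 M, and 1 read stood for 0.0334 to 0.0583 CPM. In such bulk libraries, fewer cells of a type and less RNA per cell cannot be told apart.

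By RefSeq gene order in the rat assembly GRCr8, S100a1, S100a13, S100a4, S100a6, S100a8 and S100a9 lie in 1 run of S100 genes with 0 other coding genes between its members. S100a11 and S100a10 lie next to each other at another place on the same chromosome, and S100b lies on another one. RefSeq promoters (GRCr8) were at hand for 6 of the 9 members, S100a4, S100a6, S100a9, S100a11, S100a13 and S100b. The 250 bases before the start are shown for S100a4 and S100a6, the 2 genes chosen for a response, which lie close together, and for S100b, which fell with Tat. Capitals mark matches, on either strand, to 1 of 6 motifs: AP-1 (TGANTCA), the antioxidant response element (TGACNNNGC), kappaB, STAT (TTCNNNGAA), the TATA box (TATAAA) and the CCAAT box (CCAAT). The letters of AP-1 and of the antioxidant response element can overlap.
S100a4, chr2:178388279-178388528, + strand: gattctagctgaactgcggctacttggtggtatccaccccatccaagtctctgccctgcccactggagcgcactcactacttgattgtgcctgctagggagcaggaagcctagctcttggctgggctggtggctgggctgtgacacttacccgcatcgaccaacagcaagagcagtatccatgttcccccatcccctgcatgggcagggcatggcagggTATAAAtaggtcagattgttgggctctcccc
S100a6, chr2:178398287-178398536, + strand: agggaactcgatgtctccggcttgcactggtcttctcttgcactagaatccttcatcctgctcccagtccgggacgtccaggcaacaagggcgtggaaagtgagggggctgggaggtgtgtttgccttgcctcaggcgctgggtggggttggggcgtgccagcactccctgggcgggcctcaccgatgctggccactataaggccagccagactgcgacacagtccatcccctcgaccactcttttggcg
S100b, chr20:12381082-12381331, - strand: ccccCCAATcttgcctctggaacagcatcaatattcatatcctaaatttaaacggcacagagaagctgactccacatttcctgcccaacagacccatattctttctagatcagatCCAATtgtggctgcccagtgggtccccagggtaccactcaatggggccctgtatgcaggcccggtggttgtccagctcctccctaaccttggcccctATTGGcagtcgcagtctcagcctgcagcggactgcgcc
S100a4 had a TATAAA match that began 31 bases before the start, and S100a9 had one 42 bases before it. S100b held 3 CCAAT matches and S100a13 held 1. Among all 33469 promoters of the same length, 12.9% held a TATAAA match and 34% a CCAAT match. None of the 6 S100 promoters held a match to the AP-1, antioxidant response, kappaB or STAT motifs, which were found in 6.34%, 10.1%, 1.3% and 7.67% of all promoters. A match is a description of letters in this window and not a binding site.

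Levels are given as CPM after the authors' TMM normalization, which is not per length, so that they can be compared between groups for 1 gene but not between genes. Differences were tested with limma on log2(CPM + 0.5) over the 15890 genes that reached 0.5 CPM in 3 or more libraries, with a false discovery rate (FDR) under 0.05 as the threshold. The log2 fold change on this scale understates the change of genes with low CPM. Of the 9 members 8 passed this filter. S100a9 did not pass. S100a8 had 0.5 CPM or more in 32 libraries, of which 30 were the libraries with Tat, so it passed through the group of cultures in which it was high.

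**Figure D1:**
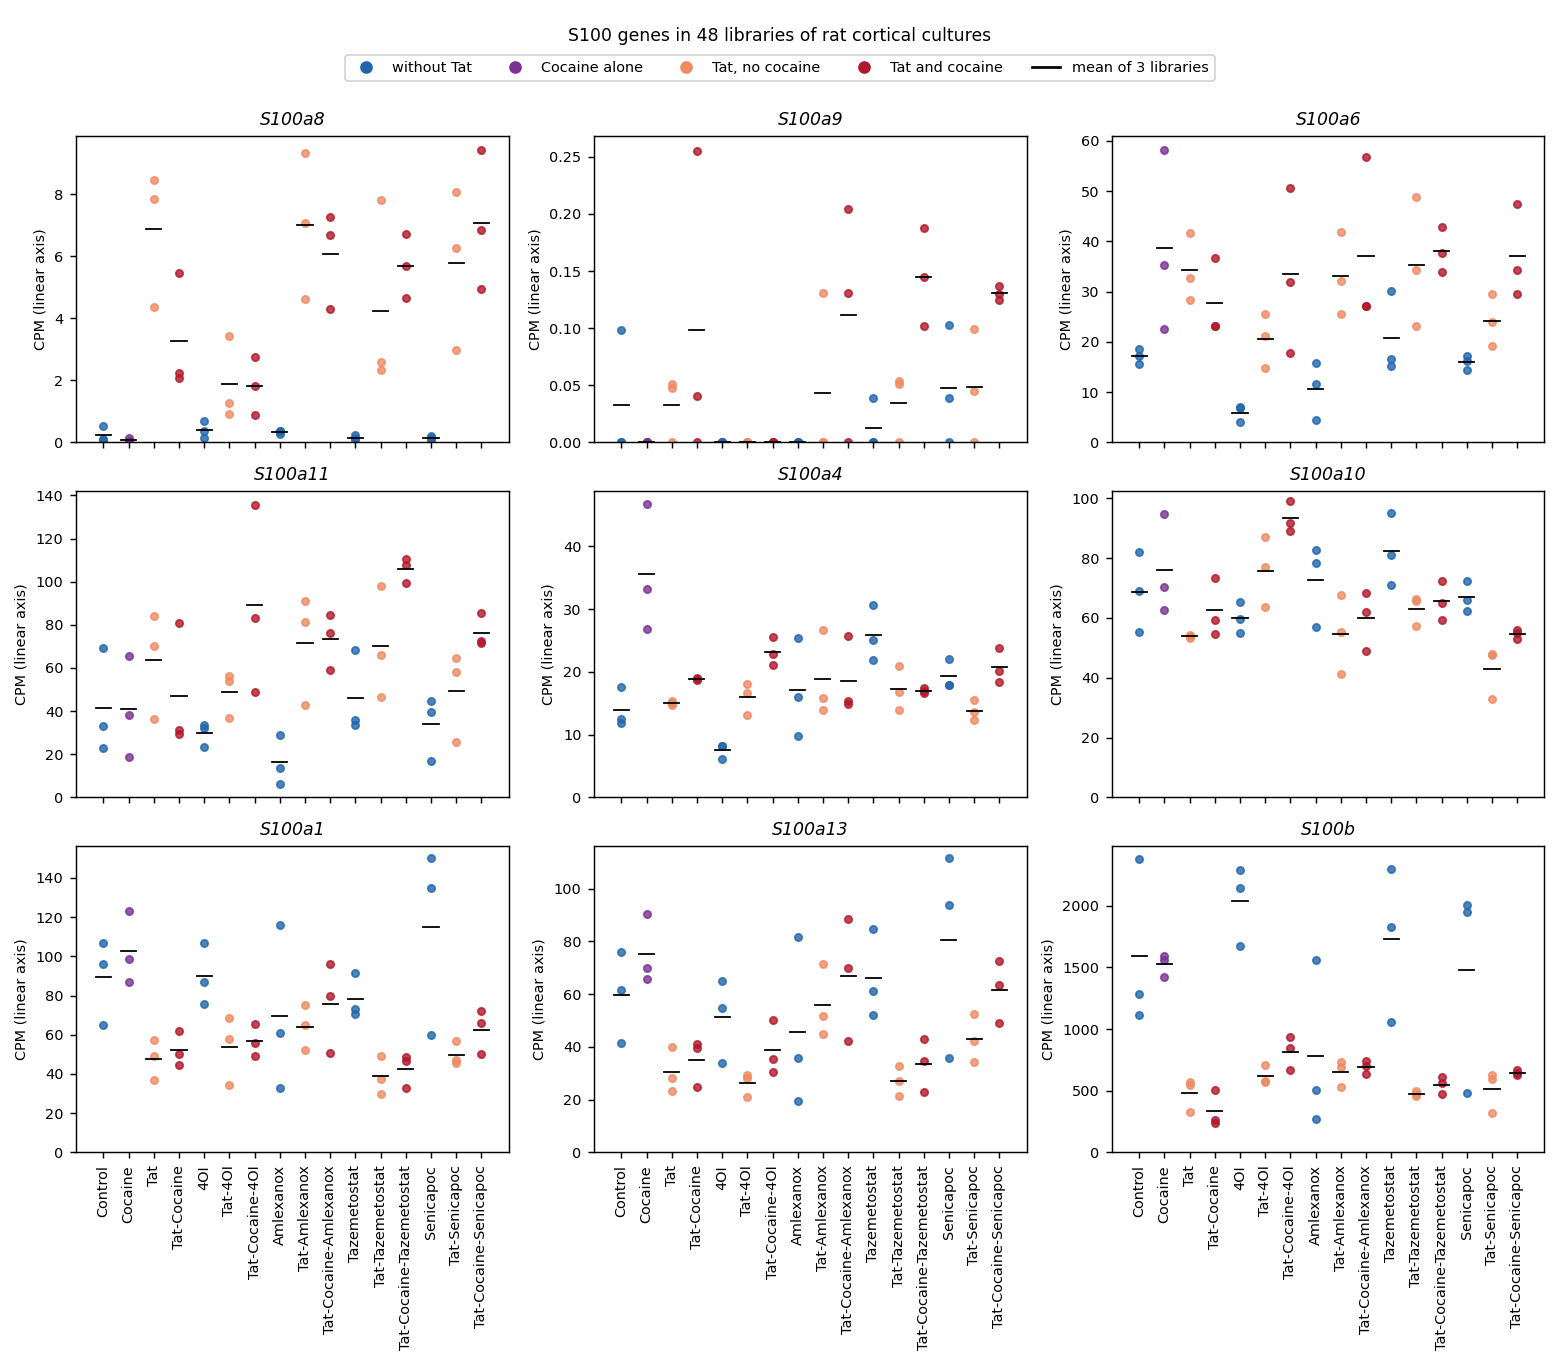
Level of each S100 gene in CPM (linear vertical axis) in 16 groups of 3 libraries (points), with the mean of the group as a line. S100a8 is near 0 in the 18 libraries without Tat and at 0.889 to 9.41 CPM in the 30 libraries with Tat, while S100b is mostly higher without Tat.

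S100a8, 1 chain of calprotectin, was close to 0 in cultures without Tat and was raised in each Tat group. Its partner chain S100a9 was hardly detected in any library. In Control libraries S100a8 stood at 0.115, 0.539 and 0.0908 CPM, and in Tat libraries at 8.47, 7.86 and 4.35 CPM. The groups did not overlap. The log2 fold change of Tat against Control was 3.30 (SE 0.395, limma FDR 1.22e-07), and the call was kept without a filter on low values. Over all 48 libraries, the 18 without Tat lay between 0.0402 and 0.700 CPM and the 30 with Tat between 0.889 and 9.41 CPM, again without overlap. In Tat-Cocaine libraries S100a8 was at 2.09, 2.25 and 5.48 CPM, all above Control (log2 fold change 2.27, SE 0.395, limma FDR 0.000108).

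Tat raised S100a8 with each of the 4 compounds as well. Each compound alone left the gene at 0.0773 to 0.700 CPM. With Amlexanox, Tat libraries were at 7.07, 9.35 and 4.62 CPM. With Tazemetostat they were at 2.32, 7.81 and 2.59 CPM, and with Senicapoc at 2.98, 8.09 and 6.26 CPM. In all 3 cases the lowest Tat library was above the highest library with the compound alone (log2 fold changes 3.11, 2.68 and 3.20, limma FDR 1.26e-06, 1.04e-05 and 7.64e-07). Tat-4OI libraries were at 0.910, 3.44 and 1.26 CPM against 0.700, 0.129 and 0.375 CPM with 4OI alone. These groups did not overlap, and the log2 fold change was 1.30 (SE 0.395, limma FDR 0.0468), a call that was lost without any 1 of the 3 4OI libraries, Tat-4OI replicate 2 or Tat-4OI replicate 3 (log2 fold changes from 0.86 to 1.60 over the 6 libraries left out). This call was also lost without the filter on low values. Those with Amlexanox, Tazemetostat and Senicapoc were kept without that filter.

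S100a9 was listed at 0 in 27 of 48 libraries, and a count of 0 allows up to 3 reads. Its highest level was 0.255 CPM, or 6 reads, in Tat-Cocaine replicate 1. All 3 libraries were above 0 in 2 groups, at 0.145, 0.102 and 0.188 CPM in Tat-Cocaine-Tazemetostat and at 0.130, 0.124 and 0.137 CPM in Tat-Cocaine-Senicapoc cultures. It did not reach the filter on low values, and its differences were not tested.

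S100a8 is abundant in neutrophils, and the neutrophil markers were therefore read beside it. All 9 were in the table, and their sum was 5.02 to 17.1 CPM without Tat and 8.35 to 98.6 CPM with Tat. Most of the sum was Csf3r, the receptor of granulocyte colony-stimulating factor, at a median of 5.82 CPM without and 31.7 CPM with Tat. Camp (cathelicidin) was at medians of 0.0815 and 1.32 CPM and the chemokine receptor Cxcr2 at 0.0862 and 0.480 CPM. Of the 4 markers that passed the filter on low values, 3 were higher and 1 was lower with Tat over the 5 backgrounds, beside 29.9% and 26.7% of all genes. The medians of Camp and Cxcr2 without Tat were below the filter of 0.5 CPM. Their part in this count may follow from the filter and supports nothing. Elane, which encodes neutrophil elastase, was at 0 in 47 libraries, the collagenase Mmp8 in 47, lactoferrin (Ltf) in 45 and neutrophilic granule protein (Ngp) in 34. Within groups the deviations of S100a8 on the log2 scale had a Pearson r of 0.634 and a Spearman rho of 0.576 with those of the neutrophil sum and of 0.440 and 0.399 with those of the sum of microglial markers. For monocytes and border macrophages, endothelium, ependyma and fibroblasts the Pearson r was 0.563, 0.528, 0.523 and 0.421. For oligodendrocytes, neurons, oligodendrocyte precursors and astrocytes it was -0.601, -0.490, -0.342 and -0.096. The part of such cells in the S100a8 levels was not tested.

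S100a6, also called calcyclin, and S100a11 were higher with Tat when the 5 backgrounds (no compound and each of the 4 compounds) were averaged. In Control libraries S100a6 was at 15.5, 18.7 and 17.2 CPM and in Tat libraries at 32.8, 41.7 and 28.4 CPM. Each Tat library was above each Control library, but the log2 fold change of 0.97 (SE 0.374) missed the threshold (limma FDR 0.0606). Amlexanox libraries were at 15.8, 11.6 and 4.52 CPM and Tat-Amlexanox libraries at 41.8, 32.2 and 25.6 CPM, again without overlap (log2 fold change 1.73, SE 0.374, limma FDR 0.000957). With Tazemetostat the log2 fold change with Tat was 0.76 and with Senicapoc 0.57, neither past the threshold (limma FDR 0.165 and 0.323). Over the 5 backgrounds the mean Tat effect on S100a6 was 1.15 (SE 0.167). This value is a description, since 1 background holds the 4OI libraries by which S100a6 was chosen. The test was taken over the other 4, where the mean was 1.01 (SE 0.187, limma FDR 3.15e-05), a setting chosen after seeing the data. The other 4 still take in the Control and Tat libraries, the reference for the fall with 4OI by which S100a6 was chosen. That test and the one of Tat against Control are thus not independent of the choice.

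S100a11, an annexin-binding S100 protein, was at 22.7, 33.05 and 69.1 CPM in Control and at 84.3, 70.0 and 36.3 CPM in Tat libraries. The groups overlapped (log2 fold change 0.67, SE 0.497, limma FDR 0.336). With Amlexanox alone it was at 28.9, 13.7 and 6.26 CPM and with Tat-Amlexanox at 91.1, 81.2 and 42.6 CPM. These did not overlap, and the log2 fold change was 2.28 (SE 0.497, limma FDR 0.00101). With 4OI, Tazemetostat and Senicapoc the log2 fold changes with Tat were 0.71, 0.62 and 0.54, each below the threshold (limma FDR 0.475, 0.416 and 0.506). Over the 5 backgrounds the mean was 0.97 (SE 0.223, limma FDR 0.000454).

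Within groups, S100a11 went with markers of fibroblasts, ependyma and endothelium. Its deviations from the group means on the log2 scale had a Pearson r of 0.879 and a Spearman rho of 0.877 with those of the summed level of 6 fibroblast markers over 48 libraries, which share library and normalization. With the sum of 4 ependymal markers they were 0.826 and 0.834, and with that of 5 endothelial markers 0.732 and 0.753. The fibroblast sum was 102 to 556 CPM without Tat (median 167) and 118 to 625 CPM with Tat (median 337). Over the 5 backgrounds 2 of its 6 genes were higher and 1 lower with Tat, beside 29.9% and 26.7% of all genes. The Control library with the highest S100a11, replicate 3, also had the highest fibroblast sum, 556 CPM against 162 and 170.3 CPM. S100a6 went most with fewer neuronal markers (Pearson r -0.575, Spearman rho -0.551). The part of such cells in the S100a11 levels was not tested. Several loci carry S100a11-like and S100a11 pseudogene names in RefSeq, and reads shared with such copies could be missed or misplaced, so its level is uncertain. The same holds for S100a10, which has a pseudogene of its own. The highest values of S100a11 and S100a10 came to 2326 and 2434 reads. Not all values of other members were whole reads. S100a4 came to 327.17, 242.5 and 385.83 reads in Control libraries and to 570, 780 and 1164 in Cocaine libraries. The highest S100b value came to 59959.5 reads. Whether reads of these genes were shared with other loci was not tested.

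S100b, S100a1 and S100a13 were lower with Tat, and S100a10 was lower by a small amount. S100b, which binds many partners and is released by astrocytes, was at 1288, 1114 and 2379 CPM in Control and at 568, 544 and 329 CPM in Tat libraries. Each Tat library was below each Control library (log2 fold change -1.69, SE 0.429, limma FDR 0.00426). Tat-Cocaine libraries were also below each Control library, at 259.8, 238 and 508 CPM (log2 fold change against Control -2.25, SE 0.429, limma FDR 0.000356), but Tat-Cocaine and Tat overlapped and did not differ by test (log2 fold change -0.56, limma FDR 0.670).

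S100b also fell with Tat in cultures given 4OI, Tazemetostat or Senicapoc. With 4OI it went from 2143, 1677 and 2294 CPM to 581, 569 and 706 CPM (log2 fold change -1.71, limma FDR 0.0149), and with Tazemetostat from 1055, 1830.3 and 2295 CPM to 460.2, 469.6 and 497 CPM (log2 fold change -1.79, limma FDR 0.00384). Neither pair of groups overlapped. Senicapoc alone held 1 low library, at 2005, 484 and 1949 CPM, against 317, 627 and 599 CPM with Tat (log2 fold change -1.33, limma FDR 0.0308). With Amlexanox the levels were 1561, 502 and 273 CPM without and 735, 693 and 531 CPM with Tat, which overlapped (log2 fold change 0.11, SE 0.429, limma FDR 0.851). The call with 4OI was lost without 4OI replicate 1, 4OI replicate 3 or Tat-4OI replicate 2 (log2 fold changes from -1.85 to -1.62 over the libraries left out). That with Senicapoc was lost without replicate 1 or 3 of either group (from -2.01 to -0.98), and without Senicapoc replicate 2, the low library, the value was -2.01.

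S100a1, which regulates the ryanodine receptor, was at 96.2, 65.0 and 107 CPM in Control and at 49.0, 36.9 and 57.1 CPM in Tat libraries. The groups did not overlap (log2 fold change -0.89, SE 0.324, limma FDR 0.0459), and the call was lost without Tat replicate 1, Tat replicate 2, Control replicate 1 or Control replicate 3 (log2 fold changes from -1.10 to -0.72). S100a13, which takes part in the release of Fgf1 and Il1a from cells, was at 61.6, 41.5 and 76.1 CPM in Control and at 39.9, 23.3 and 28.3 CPM in Tat libraries. These did not overlap either, but the log2 fold change of -0.95 (SE 0.384) was not past the threshold (limma FDR 0.0726). With Tazemetostat S100a1 went from 72.9, 70.8 and 91.6 CPM to 49.3, 29.998 and 37.6 CPM with Tat (log2 fold change -1.02, limma FDR 0.0274) and S100a13 from 52.0, 61.2 and 84.7 CPM to 32.7, 21.2 and 27.02 CPM (log2 fold change -1.27, limma FDR 0.0213), both without overlap. The first call was lost without any 1 of 5 libraries and the second without any 1 of 3. With Senicapoc S100a1 fell as well (log2 fold change -1.10, limma FDR 0.0183), a call lost without any 1 of 3 libraries. With 4OI both genes were lower in each Tat library than in each 4OI library, with log2 fold changes of -0.78 and -0.92 (limma FDR 0.163 and 0.167), and with Amlexanox they overlapped (log2 fold changes 0.05 and 0.51). Over the 5 backgrounds both were lower with Tat, S100a1 with a mean log2 difference of -0.75 (SE 0.145, limma FDR 5.31e-05) and S100a13 by -0.68 (SE 0.172, limma FDR 0.0012).

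S100a10, the p11 subunit that pairs with annexin A2, was at 55.2, 68.8 and 82.0 CPM in Control and at 54.3, 53.9 and 53.4 CPM in Tat libraries. Each Tat library was below each Control library, by little in the case of Control replicate 1 (log2 fold change -0.33, SE 0.172, limma FDR 0.165). The largest Tat effect on S100a10 was found with Senicapoc, where it went from 66.1, 72.3 and 62.3 CPM to 33.04, 47.4 and 48.0 CPM (log2 fold change -0.65, SE 0.172, limma FDR 0.00802). This call was lost without Tat-Senicapoc replicate 1, where the value was -0.48. With 4OI the sign was the other one, from 65.1, 55.1 and 59.7 CPM to 63.5, 86.9 and 76.9 CPM with Tat, and the groups overlapped (log2 fold change 0.33, SE 0.172, limma FDR 0.299). Over the 5 backgrounds S100a10 was lower with Tat, with a mean log2 fold change of -0.29 (SE 0.0767, limma FDR 0.0018). Over the 4 backgrounds without 4OI the mean was -0.44 (SE 0.0858, limma FDR 5.28e-05). Within groups its deviations had a Pearson r of -0.709 and a Spearman rho of -0.721 with those of the oligodendrocyte sum. With Amlexanox, where the replicate numbers paired the libraries, the log2 fold change of -0.42 had an FDR of 0.0512 without and 0.0396 with a replicate block in limma.

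S100a4, a binding partner of non-muscle myosin, hardly differed with Tat alone. It was at 12.5, 11.9 and 17.5 CPM in Control and at 15.3, 14.8 and 15.1 CPM in Tat libraries, which overlapped (log2 fold change 0.12, 95% confidence interval -0.36 to 0.61, limma FDR 0.739). The Tat effect on it had opposite signs with different compounds. With 4OI the libraries went from 8.12, 6.09 and 8.21 CPM to 13.1, 16.7 and 18.0 CPM, each Tat library above each 4OI library (log2 fold change 1.04, SE 0.240, limma FDR 0.00742). This call was lost without Tat-4OI replicate 2 (log2 fold changes from 0.91 to 1.17 over the libraries left out). With Tazemetostat they went from 30.7, 21.9 and 25.1 CPM to 20.9, 13.9 and 16.9 CPM, each Tat library below (log2 fold change -0.58, limma FDR 0.0967), and with Senicapoc from 22.1, 17.9 and 17.9 CPM to 12.4, 13.6 and 15.5 CPM, again each below (log2 fold change -0.46, limma FDR 0.193).

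Counted over the family, 3 of the 8 members tested passed the threshold for Tat against Control, 1 higher (S100a8) and 2 lower (S100a1 and S100b). Of all genes tested 21.3% passed in this comparison, 14.6% higher and 6.7% lower. For Tat-Cocaine against Control it was 2 of 8 members, S100a8 and S100b, beside 14.9% of all genes. In this comparison the replicate numbers paired the libraries, and with the replicate block in limma S100a1 passed as well (log2 fold change -0.75, FDR 0.118 without and 0.0238 with the block). For the mean Tat effect over 5 backgrounds it was 6 of 7 members, all but S100a4, with 2 higher and 4 lower, beside 56.5% of all genes (29.9% higher and 26.7% lower). S100a6 was left out of this count, since its mean takes in the 4OI libraries by which it was chosen. The median log2 fold change over the 8 members, S100a6 included, was -0.11 there, against -0.0031 over all genes. These comparisons share the Control and Tat libraries. Within the compounds, 3 of 7 members passed with Tat-4OI against 4OI (S100a4, S100a8 and S100b, beside 5.18% of all genes), 3 of 8 with Tat-Amlexanox against Amlexanox (S100a6, S100a8 and S100a11, beside 39.6%), 4 of 8 with Tat-Tazemetostat against Tazemetostat (S100a8, S100a1, S100a13 and S100b, beside 16.1%) and 4 of 8 with Tat-Senicapoc against Senicapoc (S100a8, S100a10, S100a1 and S100b, beside 16%). S100a8 passed the filter through the libraries with Tat, so its part in these counts follows from the filter and supports nothing.

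**Figure D2:**
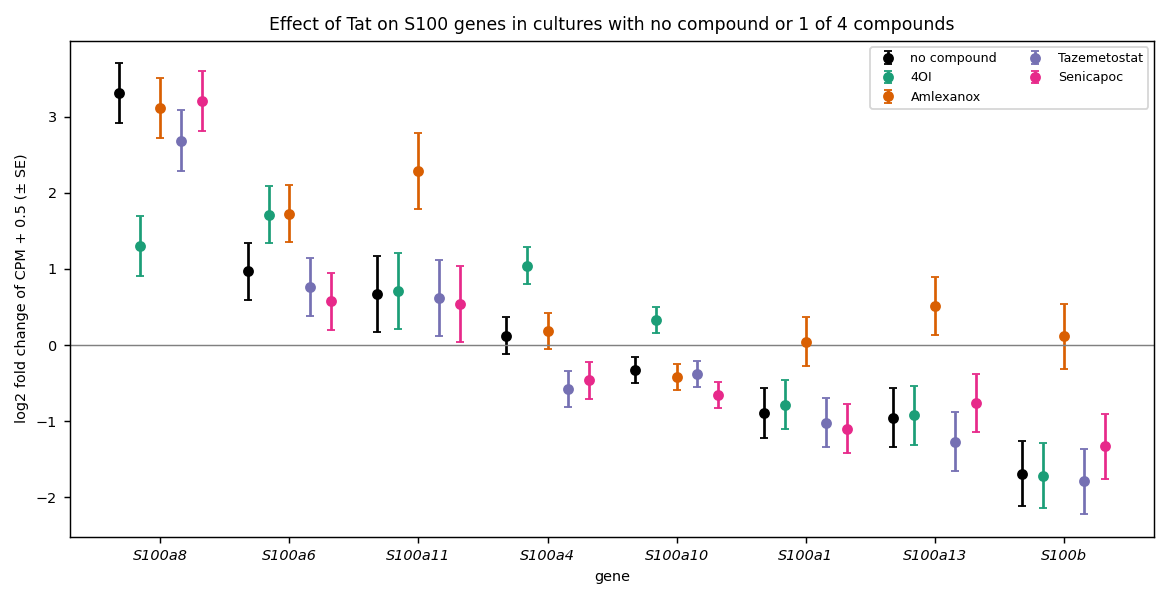
Log2 fold change of CPM + 0.5 with Tat (vertical axis, points, with the SE of limma as bars) for 8 S100 genes in cultures with no compound or 1 of 4 compounds (colours). S100a8 lies between 1.30 and 3.30, S100b between -1.79 and 0.11, and S100a4 on both sides of 0.

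Astrocyte markers went with 3 of the 4 members that were lower with Tat. Within groups, the deviations of S100a13, S100b and S100a1 had a Pearson r of 0.834, 0.741 and 0.725 and a Spearman rho of 0.791, 0.680 and 0.588 with those of the sum of 8 astrocyte markers over 48 libraries. For S100a10 the Pearson r was -0.237 and the Spearman rho -0.220. S100b also went with the fibroblast and ependymal sums (Pearson r 0.646 and 0.588, Spearman rho 0.667 and 0.582). S100a1 went against the neutrophil and microglial sums (Pearson r -0.637 and -0.600, Spearman rho -0.673 and -0.622). So did S100a13 (Pearson r -0.491 and -0.559, Spearman rho -0.482 and -0.600). The astrocyte sum had a median of 10230.2 CPM in the 18 libraries without Tat and 8560.2 CPM in the 30 with Tat. Over the 5 backgrounds 4 of its 8 markers were lower and 2 higher with Tat, beside 26.7% and 29.9% of all genes. Gfap, the intermediate filament of astrocytes, was lower with Tat alone (log2 fold change -0.70, limma FDR 0.0467). In Amlexanox libraries the astrocyte sum was 12104, 8541 and 5549.5 CPM, in the same order as S100b, S100a1 and S100a13. Senicapoc replicate 2, the library with low S100b, was also the lowest of its group in S100a1, at 59.7 CPM against 150.3 and 135 CPM, and in the astrocyte sum, at 7755 CPM against 11293 and 11379 CPM. The part of astrocytes or of other cells in these differences was not tested.

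In each library with cocaine alone, S100a4 and S100a6 stood above their Control levels, and S100a4 was chosen for this rise. S100a4 was at 12.5, 11.9 and 17.5 CPM in Control and at 26.9, 33.2 and 46.8 CPM in Cocaine libraries, each above each Control library, a log2 fold change of 1.30 (SE 0.240) that is given as a description. Without Cocaine replicate 3, which had the high oligodendrocyte markers, the value was 1.09. S100a6 was at 22.6, 35.3 and 58.3 CPM in Cocaine libraries, each above the 15.5, 18.7 and 17.2 CPM of Control, but the log2 fold change of 1.05 (SE 0.374) was not past the threshold (limma FDR 0.216). Without Cocaine replicate 1 it was 1.38, with a limma FDR of 0.0233. This setting keeps Cocaine replicate 3, which had the high oligodendrocyte markers and the highest S100a6 level of its group. With any other library of these groups left out, S100a6 did not pass. None of the 7 members tested passed the threshold, with 1 at an unadjusted p under 0.05, beside 0.201% of all genes.

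The remaining members overlapped between Cocaine and Control. S100a11 was at 38.02, 65.5 and 18.9 CPM (log2 fold change -0.05, 95% confidence interval -1.06 to 0.96) and S100b at 1556, 1596 and 1423 CPM (log2 fold change 0.02, -0.86 to 0.89). S100a8 stayed between 0.0402 and 0.142 CPM.

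When cocaine was added to Tat, 0 of 7 members tested passed the limma threshold, with 1 (S100a8, log2 fold change -1.03) at an unadjusted p under 0.05, beside 0.0189% of all genes. S100a4, chosen for its rise with cocaine, is described here with no test. Its Tat-Cocaine libraries were at 18.9, 18.95 and 18.8 CPM against 15.3, 14.8 and 15.1 CPM with Tat, without overlap (log2 fold change 0.32, SE 0.240). With 4OI, the libraries were at 21.2, 22.9 and 25.5 CPM with cocaine and 13.1, 16.7 and 18.0 CPM without, and with Senicapoc at 20.1, 18.3 and 23.9 CPM with and 12.4, 13.6 and 15.5 CPM without cocaine. Neither pair overlapped (log2 fold changes 0.53 and 0.57, SE 0.240). With Amlexanox and Tazemetostat the log2 fold changes were -0.01 and 0.00, and the groups overlapped. Over the 5 Tat backgrounds the mean cocaine effect on S100a4 was 0.28 (SE 0.107).

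Of the other members 0 of 7 passed the limma threshold for the mean cocaine effect in Tat cultures, with 2 at an unadjusted p under 0.05, beside 4.55% of all genes. They were S100a10 and S100a13, with mean log2 fold changes of 0.21 and 0.35 (limma FDR 0.0966 and 0.243). Without Tat-Amlexanox replicate 1, S100a10 passed (log2 fold change 0.25, limma FDR 0.0440). S100a6 had a mean of 0.23 (limma FDR 0.470).

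**Figure D3:**
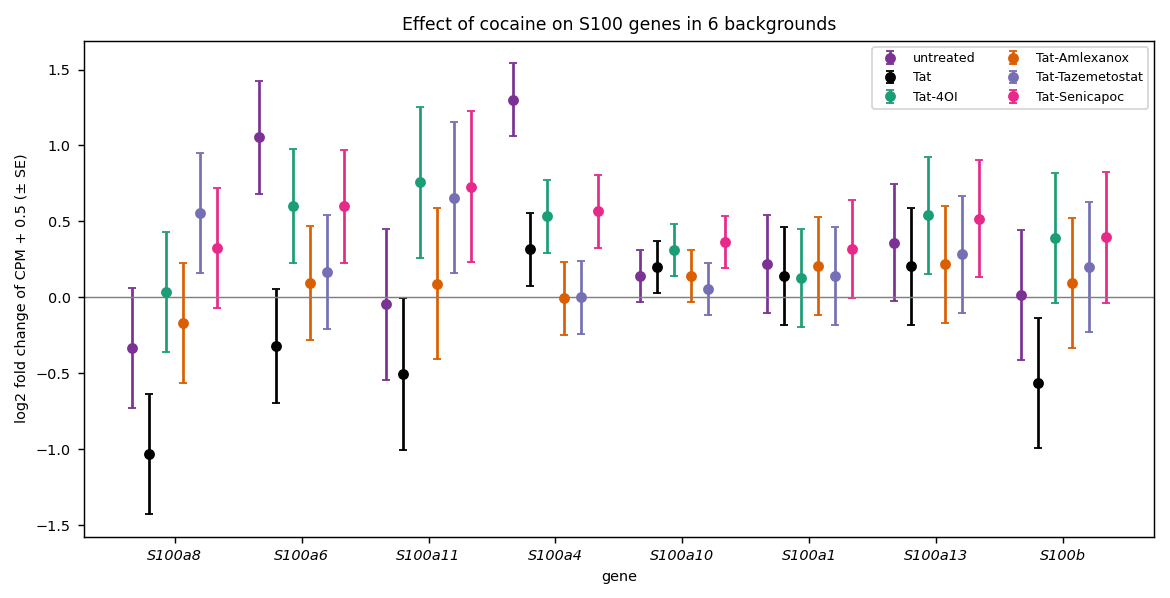
Log2 fold change of CPM + 0.5 with cocaine (vertical axis, points, with the SE of limma as bars) for 8 S100 genes in untreated cultures and in 5 kinds of Tat culture (colours). S100a4, chosen for its rise with cocaine, stands at 1.30 in untreated cultures and between -0.01 and 0.57 in Tat cultures.

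In each library with 4OI alone, S100a6 and S100a4 stood below their Control levels, and S100a6 was chosen for this fall. S100a6 was at 15.5, 18.7 and 17.2 CPM in Control and at 6.96, 6.77 and 4.09 CPM in 4OI libraries (log2 fold change -1.48, SE 0.374). In Tat cultures it was at 32.8, 41.7 and 28.4 CPM without and 14.8, 21.2 and 25.5 CPM with 4OI, each below (log2 fold change -0.74, SE 0.374). In Tat-Cocaine cultures the groups overlapped, at 23.2, 23.1 and 36.7 CPM without and 17.8, 50.7 and 31.9 CPM with 4OI (log2 fold change 0.18, SE 0.374), and the sign turned to -0.18 without Tat-Cocaine-4OI replicate 2. The 3 values are a description with no test.

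S100a4 was at 8.12, 6.09 and 8.21 CPM with 4OI alone, each below the Control libraries (log2 fold change -0.85, SE 0.240, limma FDR 0.0403). It was chosen for its rise with cocaine over the same Control libraries, so this test is not independent of the choice. The call was lost without any 1 of the 6 libraries, with log2 fold changes from -0.95 to -0.68. S100a4 was the 1 of 7 members tested that passed in this comparison, beside 3.15% of all genes, a count with the same limit. In Tat cultures S100a4 overlapped between libraries with and without 4OI, at 13.1, 16.7 and 18.0 CPM with it (log2 fold change 0.07, 95% confidence interval -0.42 to 0.55). In Tat-Cocaine cultures it was at 21.2, 22.9 and 25.5 CPM with 4OI, each above the 18.9, 18.95 and 18.8 CPM without (log2 fold change 0.29, limma FDR 0.533).

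S100a8 fell with 4OI in Tat cultures, from 8.47, 7.86 and 4.35 CPM to 0.910, 3.44 and 1.26 CPM. Each Tat-4OI library was below each Tat library (log2 fold change -1.74, SE 0.395, limma FDR 0.00254). With these 2 groups fitted alone the limma FDR was 0.0562. S100a8 was the 1 of 7 members past the threshold, beside 15.6% of all genes. Since it passed the filter through the libraries with Tat, this count supports nothing. In Tat-Cocaine cultures the levels of S100a8 were 2.09, 2.25 and 5.48 CPM without and 0.889, 2.74 and 1.83 CPM with 4OI, which overlapped (log2 fold change -0.67, SE 0.395, limma FDR 0.338). The Tat effect on S100a8 with 4OI minus that without was -2.01 on the log2 scale (SE 0.559), which missed the limma threshold (FDR 0.0890). The difference passed without Tat replicate 3 (-2.29, limma FDR 0.0455) or Tat-4OI replicate 2 (-2.45, limma FDR 0.0239). The sum of microglial markers was lower in the same libraries, at 869, 1360.1 and 627 CPM with Tat-4OI and 1424, 2463 and 1618 CPM with Tat. Their part in the S100a8 levels was not tested.

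S100b and S100a10 rose with 4OI in Tat-Cocaine cultures, 2 of 7 members beside 7.36% of all genes. S100b went from 259.8, 238 and 508 CPM to 666, 849.6 and 932 CPM (log2 fold change 1.36, SE 0.429, limma FDR 0.0470). S100a10 went from 54.7, 73.4 and 59.4 CPM to 89.0, 99.1 and 91.7 CPM (log2 fold change 0.58, SE 0.172, limma FDR 0.0319). Neither pair of groups overlapped. Both calls were lost without Tat-Cocaine replicate 1 or any 1 of the 3 Tat-Cocaine-4OI libraries, that of S100b also without Tat-Cocaine replicate 2 and that of S100a10 also without Tat-Cocaine replicate 3 (log2 fold changes from 1.15 to 1.70 for S100b and from 0.49 to 0.70 for S100a10). The astrocyte sum was 7176, 6812 and 8434 CPM without and 11644, 8159 and 12829.8 CPM with 4OI, and its part was not tested.

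As a mean over untreated, Tat and Tat-Cocaine cultures, 3 of 7 members tested passed with 4OI, beside 22.8% of all genes. The part of S100a8 in this count supports nothing, since it passed the filter through the libraries with Tat. S100a10 was higher by 0.29 (SE 0.0990, limma FDR 0.0285), S100b by 0.73 (SE 0.248, limma FDR 0.0306), and S100a8 was lower (log2 fold change -0.71, SE 0.228, limma FDR 0.0209). The median over the members was -6e-04, against 0.01 over all genes. The S100a8 call was lost without Control replicate 2, Tat-Cocaine replicate 3, Tat-4OI replicate 1 or Tat-Cocaine-4OI replicate 1 (log2 fold changes from -0.86 to -0.58 over the libraries left out). That of S100a10 was lost without Control replicate 1, Tat-Cocaine replicate 1, 4OI replicate 1 or Tat-4OI replicate 2 (from 0.24 to 0.34), and that of S100b without any 1 of 9 of the 18 libraries (from 0.64 to 0.84). The mean for S100a6 was -0.68 (SE 0.216), a description.

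**Figure D4:**
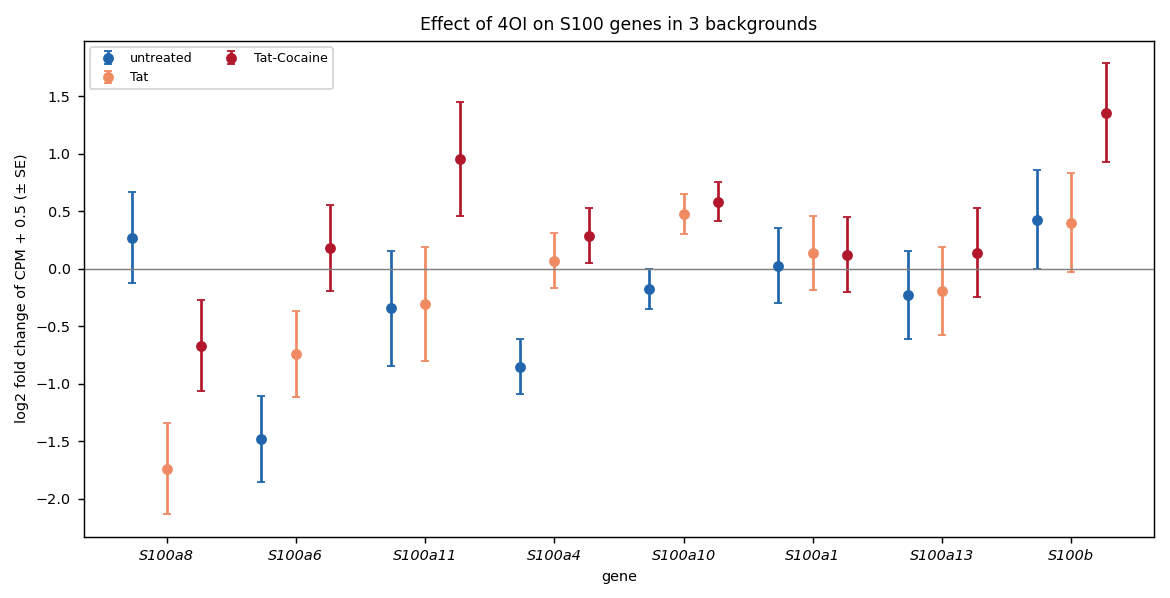
Log2 fold change of CPM + 0.5 with 4OI (vertical axis, points, with the SE of limma as bars) for 8 S100 genes in untreated, Tat and Tat-Cocaine cultures (colours). S100a6, chosen for its fall, goes from -1.48 in untreated to 0.18 in Tat-Cocaine cultures, S100a4 from -0.85 to 0.29, and S100a8 is lowest at -1.74 in Tat cultures.

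Few members passed the threshold with the other 3 compounds. Over the 3 backgrounds 0 of 8 members passed the limma threshold with Amlexanox, 0 with Tazemetostat and 0 with Senicapoc, with 0, 1 and 1 at an unadjusted p under 0.05. Of all genes 7.99%, 11.4% and 1.16% passed. The mean effects on S100a4 were 0.13, 0.30 and 0.16, and on S100a6 -0.17, 0.23 and -0.06.

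In untreated cultures Amlexanox went with lower S100b, at 1561, 502 and 273 CPM against 1288, 1114 and 2379 CPM in Control. The groups overlapped, and Amlexanox replicate 1 was at the level of Control (log2 fold change -1.33, SE 0.429, limma FDR 0.0392). S100b was the 1 of 8 members past the threshold, beside 11.4% of all genes, and the call was lost without Control replicate 3, Amlexanox replicate 2 or Amlexanox replicate 3 (log2 fold changes from -2.02 to -0.77). S100a11 was at 28.9, 13.7 and 6.26 CPM with Amlexanox (log2 fold change -1.42, SE 0.497, limma FDR 0.0572). The fibroblast sum in these libraries was 305, 145 and 102 CPM, in the order of S100a11, and its part was not tested.

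Tazemetostat alone went with S100a4 at 30.7, 21.9 and 25.1 CPM, each library above Control (log2 fold change 0.87, SE 0.240), but the FDR of limma was 0.784 in a comparison with 0 genes past the threshold and 576 at an unadjusted p under 0.05. Senicapoc alone had S100a4 at 22.1, 17.9 and 17.9 CPM, also above Control (log2 fold change 0.46, SE 0.240, limma FDR 0.584). These comparisons share the Control libraries by which S100a4 was chosen. In Tat-Cocaine cultures Tazemetostat raised S100a11, from 29.5, 31.1 and 80.9 CPM to 108, 111 and 99.4 CPM, without overlap (log2 fold change 1.32, SE 0.497, limma FDR 0.0443). It was the 1 of 8 members past the threshold, beside 28.7% of all genes, a call lost when Tat-Cocaine replicate 1, Tat-Cocaine replicate 2 or any 1 of the 3 Tat-Cocaine-Tazemetostat libraries was left out (log2 fold changes from 1.07 to 1.79). The ependymal sum was 38.9, 57.9 and 90.8 CPM without and 195, 259 and 152 CPM with Tazemetostat, and the fibroblast sum 344, 348 and 546 CPM without and 288, 284 and 346 CPM with it. Their part was not tested.

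Across the 16 groups, mean S100a4 was highest in Cocaine (35.6 ± 10.2 CPM, mean ± SD of 3 libraries), followed by Tazemetostat (25.9 ± 4.42 CPM) and Tat-Cocaine-4OI (23.2 ± 2.18 CPM), and lowest in 4OI (7.47 ± 1.20 CPM). Of its 15 pairs of neighbours in this order, 1 did not overlap, Tat-Senicapoc (13.8 ± 1.57 CPM) just above 4OI. S100a6 was also highest in Cocaine (38.7 ± 18.1 CPM) and lowest in 4OI (5.94 ± 1.61 CPM), and none of its neighbours were separate. Mean S100a8 was highest in Tat-Cocaine-Senicapoc (7.06 ± 2.24 CPM) and lowest in Cocaine (0.0748 ± 0.0578 CPM), and its 1 separate pair was Tat-Cocaine-4OI (1.82 ± 0.926 CPM) and 4OI (0.401 ± 0.286 CPM), the step between cultures with and without Tat. Mean S100b was highest in 4OI (2038 ± 322 CPM) and lowest in Tat-Cocaine (335 ± 149.8 CPM).

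Genes whose log2 level was most like that of S100a4, S100a6 and S100a8 over the 48 libraries were listed by Pearson r, as a description over libraries that share treatment groups. For S100a4 they were Dmrtb1 (0.68), Col5a3 (0.68), Myh11 (0.65), S100a6 (0.64) and Akap12 (0.62). S100a6 was most like Glb1l2 (0.86), Sri (0.83), Gypc (0.83), Slc35d2 (0.83) and AABR07031674.6 (0.82). For S100a8, whose level separates cultures with and without Tat, the values were higher, with AABR07003235.1 (0.97), Itgb8 (0.97), Cd72 (0.97), Kif26b (0.96) and Il1rn (0.96). Between members, S100a1 and S100a13, which lie next to each other, had an r of 0.89, and S100a8 and S100b one of -0.60.

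Partners of S100 proteins were read from a list of 25 genes, of which 24 were in the table and tested. Over the 5 backgrounds 8 of them were higher and 7 lower with Tat, with a median log2 fold change of 0.03, beside 56.5% of all genes past the threshold. The annexins Anxa1, Anxa2, Anxa6 and Anxa11, which bind S100a10, S100a11 or S100a6, were higher by 0.72, 0.38, 0.59 and 0.37 on the log2 scale (limma FDR 1.98e-05, 0.00177, 2.26e-06 and 0.000933). Interleukin-1 alpha (Il1a), a cargo of S100a13, rose by 1.54 and the calprotectin receptor Tlr4 by 0.85 (limma FDR 9.64e-09 and 2.58e-05). The S100a4 target Myh9, a heavy chain of non-muscle myosin, rose by 0.33 (limma FDR 0.00591). Lower were the receptor Ager (-0.24), the S100a6 partner Cacybp (-0.29), Gfap (-0.43), the potassium channel Kcnk3 (-0.45), the S100a1 target Ryr2 (-0.45) and, of the plasminogen system that S100a10 takes part in, Plat (-0.43) and Plg (-0.43), all with a limma FDR under 0.05. Myh9, Ager and Plg were near the filter on low values, with group means of 0.34 to 1.17, 0.61 to 1.09 and 0.29 to 0.85 CPM.

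With 4OI as a mean over 3 backgrounds, 2 of 24 partners were higher and 3 lower, beside 22.8% of all genes past the threshold. Tlr4 fell by 0.94 and Il1a by 1.14 on the log2 scale (limma FDR 0.000711 and 0.000394), and Ager by 0.31 (limma FDR 0.0483). Gfap rose by 0.50 and Cacybp by 0.14 (limma FDR 0.0114 and 0.0133). The mean cocaine effect in Tat cultures passed for 1 partner, Kcnk3, which fell by 0.74 (limma FDR 0.000139), beside 4.55% of all genes. Amlexanox had 2 lower, Plat (-0.75) and Fgf1 (-0.73), Senicapoc 1 lower, Plat (-0.57), and Tazemetostat 4 higher, Anxa2 (0.53), Tlr4 (0.80), Plau (0.99) and Il1a (0.71), and 1 lower, Ryr2 (-0.75), beside 7.99%, 1.16% and 11.4% of all genes.

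The table held 9 other genes whose symbols begin with S100, of which 3 were tested. S100a16, within the run of S100 genes named above, was at 393, 374 and 379 CPM in Control and at 266, 231 and 233 CPM in Tat libraries, without overlap (log2 fold change -0.65, limma FDR 0.00958). S100a3 was at 4.15, 3.70 and 3.33 CPM in Control and at 2.51, 6.58 and 14.1 CPM in Tat libraries, which overlapped. It was lower with Tazemetostat as a mean over 3 backgrounds (log2 fold change -0.77, limma FDR 0.0415). The value was 0.14 in untreated, -0.98 in Tat and -1.48 in Tat-Cocaine cultures. The means with Amlexanox and Senicapoc, against the same libraries, were -0.56 and -0.58 (limma FDR 0.171 and 0.208). S100pbp encodes a protein that binds S100p and is not itself an EF-hand protein of the family. The other 6 reached at most 0.305 CPM.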

How the data were processed

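Poly(A) RNA of 48 cultures was sequenced with a strand-specific kit (NEBNext Ultra II Directional). The authors deposited a table of signal values, CPM (reads scaled to a common library total) normalized between libraries by TMM. The submitters' processing notes name Trim Galore 0.4.5, STAR 2.7.2, SAMtools 1.5 and featureCounts of Subread 1.5.3. Sources differ on the genome build, so no coordinates of the table are given. The table also holds group means and the authors' own comparisons (log2 fold changes, likelihood ratios, p-values and FDR), which were not used. Not all values came out as whole reads, so no count test was run.

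Groups were taken from the labels, and all 48 libraries were used. The 15890 of 30211 genes that reached 0.5 CPM in 3 or more libraries were tested on log2(CPM + 0.5) with limma 3.58.1 (R 4.3.3), with 1 fit over 16 groups, an intensity trend and Benjamini-Hochberg FDR over all genes. The code was tested on simulated data. The members, gene lists and tests were chosen with earlier results of these data known. S100a4 was left untested in all comparisons of cocaine with none, the Tat cultures included, a choice made after seeing the data. All members were named, and all partner genes past the threshold in the comparisons described. The 5 genes most like S100a4, S100a6 and S100a8 were taken by Pearson r. The replicate numbers were read as pairing 2 groups where all 3 same-numbered pairs had a correlation of deviations over 0.1, which held in 9 of 24 comparisons. Alternatives were other pseudocounts, filters, scalings and sets of libraries, no trend, a replicate block, and each library left out in turn. Depth (17.5 to 29.1 M reads) limits S100a9, with a floor of 3 reads. Floors and intervals from counts cover counting error only. The markers Ccr2, Col1a2, Pecam1 and Foxj1 and the S100 partner Cd36 were not used here. The values of 1 gene of the partner list, which its counts include, are not reported here.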

Additional observations from a re-analysis of the deposited data

Results flagged for a closer look

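The responses of some members differed between backgrounds when the difference itself was tested in limma on log2(CPM + 0.5). Every pair of backgrounds of each effect was searched, with the FDR taken within 1 comparison. Only differences past the threshold, or with libraries moving in opposite directions, are listed. The Tat effect with Amlexanox minus that with 4OI was 1.81 for S100a8 (SE 0.559, limma FDR 0.0368), -0.74 for S100a10 (SE 0.242, limma FDR 0.0455) and 1.83 for S100b (SE 0.607, limma FDR 0.0479). These calls were lost without any 1 of 8, 10 and 10 of the 12 libraries, with values from 1.51 to 2.25, from -0.91 to -0.56 and from 1.26 to 2.52. They were also lost without the filter on low values. Of all genes 10.8% passed in this comparison. The cause was not tested.

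For S100a4 the Tat effect with Tazemetostat minus that with 4OI was -1.62 (SE 0.339, limma FDR 0.0445), and the libraries moved in opposite directions in the 2 backgrounds. The call was lost without any 1 of 11 of the 12 libraries (values from -1.77 to -1.48), and 0.0818% of all genes passed in this comparison. With Senicapoc minus 4OI the difference was -1.51 (limma FDR 0.0974), again with all libraries moving in opposite directions, but it missed the threshold, which 0.0566% of all genes passed.

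The Amlexanox effect in Tat-Cocaine cultures minus that in untreated cultures was 2.46 for S100b (SE 0.607, limma FDR 0.0136), a call lost without Control replicate 3 or Amlexanox replicate 3 (values from 1.89 to 3.15). For S100a11 it was 2.20 (SE 0.704, limma FDR 0.0435), lost without any 1 of 9 of the 12 libraries (from 1.67 to 2.73). Of all genes 9.32% passed in this comparison. S100a4 moved in opposite directions in Tat-Cocaine and untreated cultures with 4OI (difference 1.14, limma FDR 0.227) and with Tazemetostat (difference -1.02, limma FDR 0.271), both short of the threshold. These differences take in the Control libraries by which S100a4 was chosen.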

How the results depend on the processing

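The count of members past the threshold moved under some alternative in 6 of the 10 results counted. For 4OI over 3 backgrounds it was 1 with quantile normalization and 1 to 3 with 1 library left out (1 without Control replicate 1, Control replicate 2, Tat-Cocaine replicate 1 or 4OI replicate 1). For the difference of the Tat response between cultures with and without a compound, 0 in the limma fit, it was 2 with the replicate block (S100a8 with 4OI, limma FDR 0.0404, and S100a13 with Amlexanox, limma FDR 0.0421) and 0 to 4 with 1 library left out (4 without Amlexanox replicate 1, and 1 without Tat replicate 3, Senicapoc replicate 2 or Tat-4OI replicate 2). For cocaine over 5 Tat backgrounds it was 0 to 1 (1 without Tat-Amlexanox replicate 1), for Cocaine against Control 0 to 1 (1 without Cocaine replicate 1) and for Tat against Control 2 to 4.

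The replicate block gave 4 members in place of 3 for Tat against Control, where the numbers did not pair the libraries, with S100a13 added (limma FDR 0.0172). It also added S100a10 with Tat-4OI against Tat (limma FDR 0.0369), and S100a1 and S100a13 with Tat-4OI against 4OI (limma FDR 0.0337 and 0.0486). For Tat-Cocaine against Control it gave 3 in place of 2. The mean Tat effect on S100a4, near 0, turned to -0.0137 with quantile normalization and to -0.18 over the 4 backgrounds without 4OI, a setting chosen after seeing the data. With 1 library left out it ran from -0.0054 (without Amlexanox replicate 3) to 0.1276. The S100a6 value for Tat-Cocaine-4OI against Tat-Cocaine ran from -0.1752 (without Tat-Cocaine-4OI replicate 2) to 0.5652. The cocaine effect on S100a4, near 0, ran from -0.2571 (without Tat-Cocaine-Amlexanox replicate 1) to 0.2668 (without Tat-Amlexanox replicate 1) with Tat-Amlexanox, where it was 0.0061 with quantile normalization, and from -0.14 (without Tat-Tazemetostat replicate 2) to 0.1469 (without Tat-Tazemetostat replicate 1) with Tat-Tazemetostat. The causes were not tested. Among values of single genes, 499 of those under other settings kept their call and direction, 41 lost the call, 2 gained it and 3 changed sign. With 1 library left out, 532 kept them, 120 lost the call and 8 changed sign. Calls near the threshold rest on 3 libraries a group.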
